A study of Mus musculus with 24 samples.

Results

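Genes of DNA replication and of mitosis were followed across normal mouse cerebellum, medulloblastoma and cultured medulloblastoma lines. Members were taken by exact gene symbol in the array's annotation from a list of 40 genes, 21 of replication and 19 of mitosis. The array held 39 of them, the 21 replication genes and 18 mitosis genes, among 12393 genes measured in all. Ccnb1 was not analysed here. The replication genes run from Mcm2, Mcm3, Mcm4, Mcm5, Mcm6, Mcm7 and Mcm10 through Pcna, Cdc6, Cdc45, Rrm1, Rrm2, Tk1, Tyms, Pola1, Prim1, Rfc4 and Fen1 to Ccne1, Ccne2 and E2f1. The mitosis genes are Ccna2, Ccnb2, Cdk1, Cdc20, Plk1, Foxm1, Top2a, Mki67, Aurka, Aurkb, Bub1, Bub1b, Birc5, Kif11, Kif20a, Cenpa, Ttk and Ube2c.

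A dividing cell copies its DNA in S phase and separates the copies in mitosis, and many of the genes for each step are transcribed in waves of their own. E2F factors, held in check by the retinoblastoma protein, drive the replication wave, whose products load and run the Mcm helicase, make nucleotides and copy DNA. FoxM1 and B-Myb, acting with the MuvB complex, drive the later wave, whose products build the spindle, check the attachment of chromosomes and mark proteins for destruction. In the young cerebellum granule neuron precursors divide under Sonic hedgehog, and loss of Ptch1, the receptor that restrains this pathway, can turn them into medulloblastoma.

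The measurements came from 24 arrays. Among the 18 cultures of the lines SMB21, SMB55 and SMB56, 7 were RAS transformed (3, 2 and 2 arrays), 3 were growth factor (GF) cultures with 1 array a line, and 8 were parental (4, 2 and 2 arrays). The lines were started from spontaneous medulloblastomas (MB) of Ptch+/- mice and grown as neurospheres, and all are labelled Ptch1 mutant. GF cells had spent more than 3 weeks with EGF and bFGF, each at 20 ng/mL, and heparin, while the labels name neither the RAS isoform nor the construct. The tissues were 3 primary MB of adult Ptch1 mutant mice, 1 adult wild-type cerebellum and 2 wild-type cerebella of postnatal day 6 (P6), of which replicate 2 has an age label naming an embryo stage that its title contradicts. Replicates are titled biological, yet the labels do not tie them to separate animals or cultures, so the p-values measure only the spread between these samples. Each level below is the log2 of the deposited intensity plus 16, and a difference of 1 on this scale is close to a 2-fold change except near the lowest intensities. A gene was called changed when limma's adjusted p, taken over all 12393 genes, was under 0.05.

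The tissues carried the markers of their labels. Markers are given as the log2 of their summed intensity, which the brightest genes of a list weigh most in. For the 9 markers of granule neuron precursors it was 15.81 to 15.92 in MB, 14.70 in adult cerebellum and 15.40 to 15.51 at P6. The 6 Purkinje cell markers lay at 10.78 to 11.47 in MB, 16.87 in the adult and 15.39 to 15.41 at P6. Microglia and macrophage markers, 9 genes, reached 13.79 to 14.56 in MB, 14.13 in the adult and 12.42 to 12.83 at P6. In the parental lines 8 of these 9 lay below the lower quartile of all genes on every array. These are bulk samples, in which fewer cells of a type and less RNA per cell cannot be told apart. SMB21 RAS replicate 1 had the lowest median level of any culture in both lists, 10.13 for the replication genes and 10.17 for the mitosis genes.

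The promoters of the 2 groups of genes are printed here because their windows hold different letters. RefSeq's table for GRCm38.p6 gave a window of 300 bases, 250 before the transcript's first base and 50 from it on, for 33 members. Capitals mark matches, on either strand, to an E2F core (TTTCCCGC, TTTCGCGC, TTTGCCGC or TTTGGCGC), to TTTGAA, the core of the cell cycle homology region (CHR) that MuvB binds, and to CCAAT, the box that NF-Y binds. The first 3 windows are from the Mcm helicase, and Mcm5 was among the replication genes with the largest differences in adult cerebellum and in RAS cells. All 3 hold an E2F core, unlike the windows of Mcm2 and Mcm10 and another window of Mcm7, which are not printed. The next 4 are from the mitotic cyclin-dependent kinase Cdk1, the spindle motor Kif11, the mitotic kinase Plk1 and the DNA topoisomerase Top2a.
Mcm5 promoter, chr8:75109259-75109558 (plus strand): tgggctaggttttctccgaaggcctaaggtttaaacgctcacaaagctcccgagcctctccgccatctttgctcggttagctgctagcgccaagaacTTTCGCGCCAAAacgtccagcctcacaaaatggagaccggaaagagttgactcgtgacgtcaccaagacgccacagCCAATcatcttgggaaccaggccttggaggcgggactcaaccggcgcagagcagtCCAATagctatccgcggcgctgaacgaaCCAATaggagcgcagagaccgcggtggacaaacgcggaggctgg
Mcm6 promoter, chr1:128359656-128359955 (minus strand): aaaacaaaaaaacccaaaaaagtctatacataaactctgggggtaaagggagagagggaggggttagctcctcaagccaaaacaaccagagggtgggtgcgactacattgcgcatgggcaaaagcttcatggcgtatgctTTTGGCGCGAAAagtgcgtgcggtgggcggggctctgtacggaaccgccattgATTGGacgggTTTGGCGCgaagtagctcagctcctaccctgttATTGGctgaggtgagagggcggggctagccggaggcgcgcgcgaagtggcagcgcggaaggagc
Mcm7 promoter, chr5:138171834-138172133 (minus strand): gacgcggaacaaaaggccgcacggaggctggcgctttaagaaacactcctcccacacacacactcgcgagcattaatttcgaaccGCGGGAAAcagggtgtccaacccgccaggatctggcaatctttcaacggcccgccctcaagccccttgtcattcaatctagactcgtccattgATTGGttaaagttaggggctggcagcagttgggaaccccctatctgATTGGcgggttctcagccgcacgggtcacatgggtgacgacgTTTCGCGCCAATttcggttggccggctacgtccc
Cdk1 promoter, chr10:69352863-69353162 (minus strand): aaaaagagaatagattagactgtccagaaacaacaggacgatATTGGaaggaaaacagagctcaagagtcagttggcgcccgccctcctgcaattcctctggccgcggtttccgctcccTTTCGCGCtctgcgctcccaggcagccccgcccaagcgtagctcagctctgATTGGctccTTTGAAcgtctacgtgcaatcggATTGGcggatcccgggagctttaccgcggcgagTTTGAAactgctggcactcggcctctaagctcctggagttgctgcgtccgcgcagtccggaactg
Kif11 promoter, chr19:37376132-37376431 (plus strand): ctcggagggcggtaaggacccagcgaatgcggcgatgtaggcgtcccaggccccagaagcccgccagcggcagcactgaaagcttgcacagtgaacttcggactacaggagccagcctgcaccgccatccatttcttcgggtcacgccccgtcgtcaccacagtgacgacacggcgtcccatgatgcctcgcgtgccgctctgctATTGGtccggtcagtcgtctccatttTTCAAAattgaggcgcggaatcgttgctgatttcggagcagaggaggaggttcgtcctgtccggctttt
Plk1 promoter, chr7:122159185-122159484 (plus strand): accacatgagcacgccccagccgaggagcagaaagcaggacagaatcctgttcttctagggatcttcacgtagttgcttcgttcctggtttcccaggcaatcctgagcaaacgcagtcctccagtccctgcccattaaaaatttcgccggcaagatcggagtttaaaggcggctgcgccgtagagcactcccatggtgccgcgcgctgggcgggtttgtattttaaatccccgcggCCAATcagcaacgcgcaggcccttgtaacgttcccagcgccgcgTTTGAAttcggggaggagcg
Top2a promoter, chr11:99024140-99024439 (minus strand): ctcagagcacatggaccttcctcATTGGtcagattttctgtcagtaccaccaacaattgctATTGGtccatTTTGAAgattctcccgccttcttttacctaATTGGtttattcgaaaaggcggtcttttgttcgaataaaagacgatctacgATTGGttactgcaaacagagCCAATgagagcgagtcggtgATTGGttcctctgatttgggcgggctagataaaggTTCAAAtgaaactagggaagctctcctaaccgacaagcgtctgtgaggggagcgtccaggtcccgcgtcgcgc

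An E2F core was found in the windows of 6 of 19 replication genes, 31.6%, and of 1 of 14 mitosis genes, 7.1%. Of all 32851 windows in the table, 2.26% held one. Mcm7 and Fen1 had 2 windows each, and a gene was counted when either held the motif. The shares of members are thus by gene and those of all by window. The 6 are Mcm3, Mcm5, Mcm6, Mcm7, Cdc6 and Pola1, and the mitosis gene is Cdk1. The order was the other way for TTTGAA. It stood in 3 of the 19 replication genes, 15.8%, and in 12 of the 14 mitosis genes, 85.7%, against 17.89% of all windows. Birc5 and Bub1 were the mitosis genes without it. CCAAT stood in 12 replication genes, 63.2%, in 13 mitosis genes, 92.9%, and in 37.41% of all windows. The 16 TTTGAA matches of the mitosis genes had a median position of -18 from the start, and 11 of them lay within 50 bases of it. In Mcm7 an E2F core and a CCAAT share letters, the 1 overlap between different motifs among the members. These matches describe letters in a window and show no binding.

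**Figure D1:**
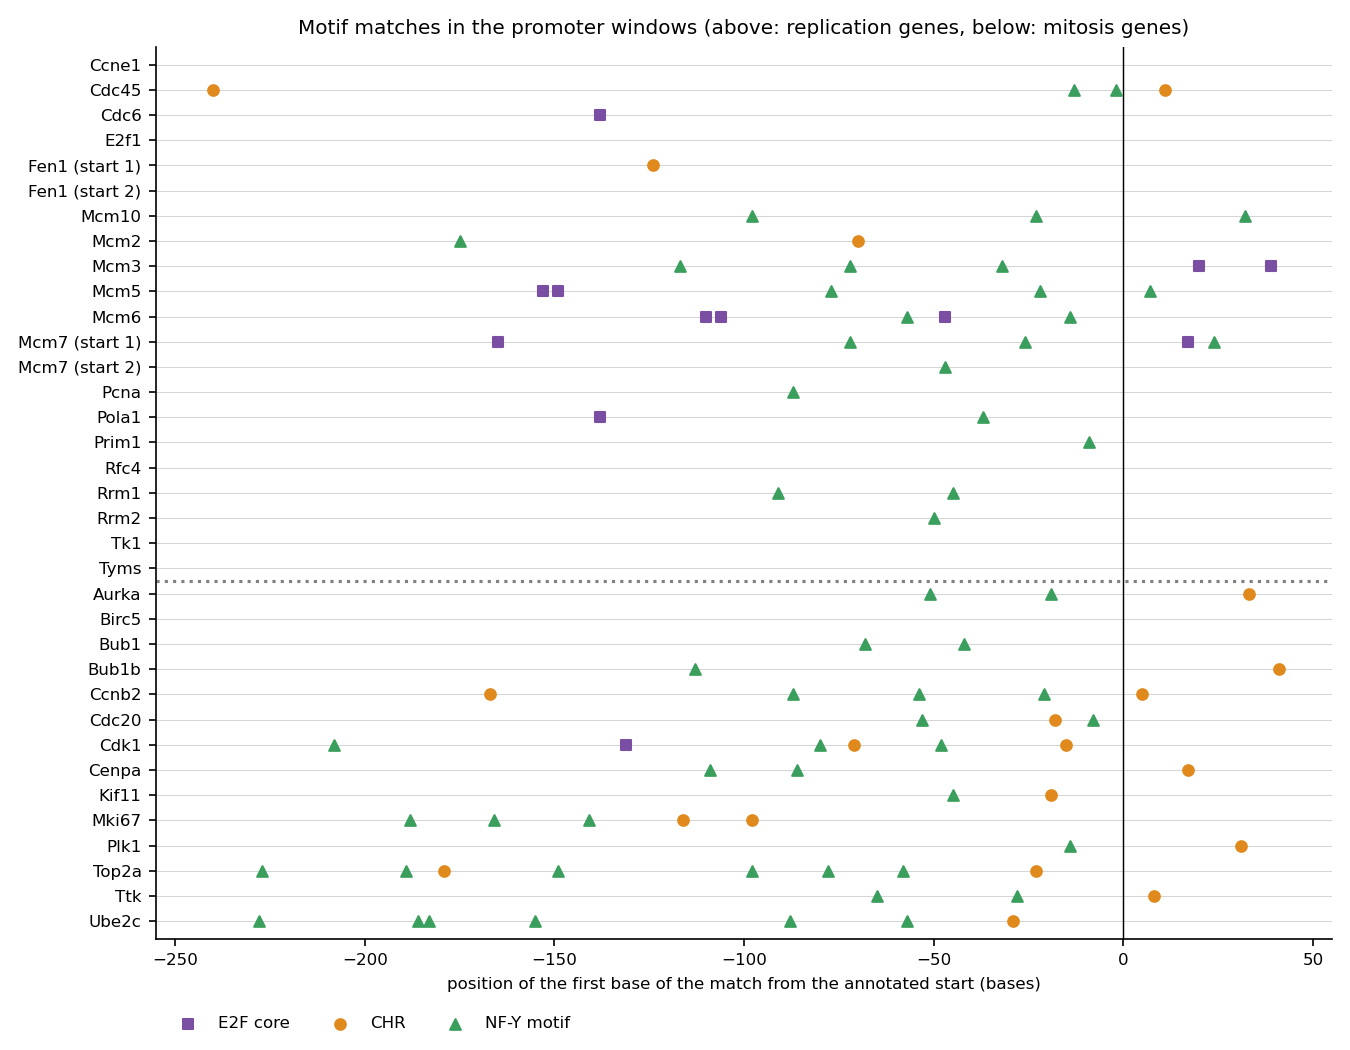
Positions of the 3 motifs in the promoter windows of the members, by gene (rows) and distance of the match's first base from the transcript's start in bases (x axis). TTTGAA matches of the mitosis genes gather close to the start, with a median of -18, while E2F cores are found in 6 replication genes and 1 mitosis gene.

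In adult cerebellum 17 of 21 replication genes and 18 of 18 mitosis genes were lower than at P6. The median difference was -2.73 for the replication genes and -4.82 for the mitosis genes, beside 0.03 for all genes, and 10.3% of all genes were called lower. The adult group is 1 array, whose spread was taken to be that of the other groups. On that array 19 replication genes and all 18 mitosis genes lay below every other array of the series, as did 16.1% of all genes.

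Rrm2, the regulated subunit of the ribonucleotide reductase that makes deoxynucleotides, had a level of 7.08 in the adult, against 12.29 and 12.07 in the P6 cerebella. The adult value lay far under both. The difference of -5.10 (SE 0.37), 34.2-fold lower with an adjusted p of 0.000205, was the largest among the replication genes. Mcm3 and Mcm5, ring subunits of the replicative helicase, followed. Mcm3 stood at 6.94 in the adult and at 11.09 and 11.04 at P6, 17.5-fold lower (difference -4.13, SE 0.21, adjusted p 5.22e-05). Mcm5 stood at 6.0 in the adult and at 9.87 and 9.98 at P6, 15.2-fold lower (difference -3.93, SE 0.21, adjusted p 5.69e-05).

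The 4 replication genes that missed the threshold were both E cyclins, E2f1 and Tyms. Cyclin E, the partner of Cdk2 at the entry to S phase, is made by Ccne1 and Ccne2. Ccne1 had 8.49 in the adult and 8.36 and 8.33 at P6, the one member with a higher adult value (difference 0.14, SE 0.30, adjusted p 0.813). Ccne2 had 10.38 in the adult and 11.51 and 11.45 at P6, a difference of -1.11 (adjusted p 0.124). Tyms, the thymidylate synthase, differed by -0.77 (SE 0.33, adjusted p 0.165) at levels of 5.40 in the adult and 6.27 and 6.07 at P6. E2f1, the transcription factor of the replication wave, had 6.32 in the adult against 8.74 and 8.58 at P6, a difference of -2.34 with a wide SE of 0.82 and an adjusted p of 0.0945. That SE pools the spread of the tissue groups with that of the 3 parental SMB line means. For E2f1 the SD was 0.11 at P6 and 0.10 in MB. Its line means were 9.89 in SMB21, 12.11 in SMB55 and 10.10 in SMB56. Pcna and Fen1, which also serve DNA repair, fell by less than most called genes, 3.62-fold and 2.51-fold. Pola1, the catalytic subunit of DNA polymerase alpha, was called with all arrays but not without P6 replicate 1 or without replicate 2 (adjusted p 0.0668 and 0.0691).

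Top2a, which untangles sister chromatids, had the largest difference of all members, with 5.92 in the adult and 12.70 and 12.74 at P6. It was 112-fold lower in the adult (adjusted p 1.48e-05). Mki67, which coats mitotic chromosomes and is the standard marker of proliferation, had 5.98 in the adult and 12.62 and 12.53 at P6, 96.4-fold lower (adjusted p 1.48e-05). Birc5, or survivin, of the chromosomal passenger complex, had 5.23 in the adult and 11.03 and 11.01 at P6, 55.4-fold lower (adjusted p 1.74e-05). In each of these genes the adult value stood near the floor of the scale, whose lowest value over all genes and arrays was 4.72, so the folds are compressed by the added 16.

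The smallest differences among the mitosis genes were those of Plk1 and Foxm1. Plk1 had 5.74 in the adult and 8.41 and 8.38 at P6 (difference -2.66, SE 0.14, adjusted p 5.22e-05). Foxm1, the factor of the mitotic wave, had 5.77 in the adult and 7.61 and 7.29 at P6 (difference -1.68, SE 0.24, adjusted p 0.00377). Its other probe sets differed by -0.16, 0.23 and 0.26, and with the mean of all its probe sets the call was lost (difference -0.34, adjusted p 0.173).

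**Figure D2:**
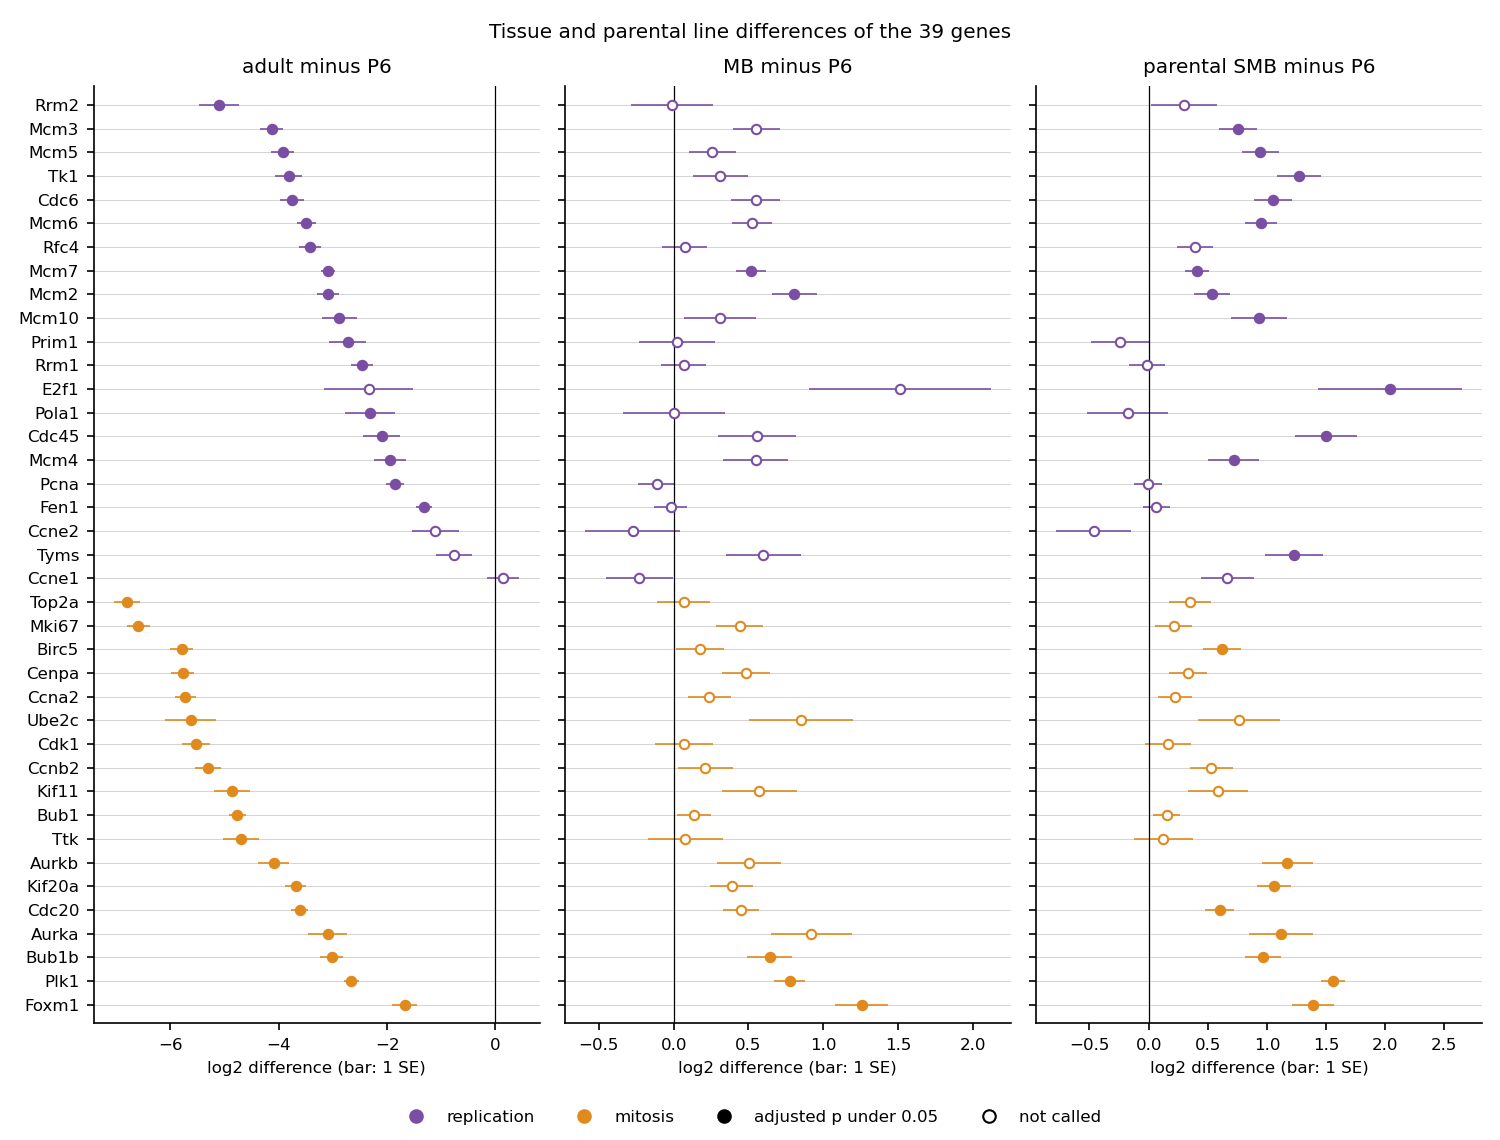
Differences in level (log2 of intensity plus 16, x axis, scales differ between panels) for the 39 genes (rows): adult minus P6 cerebellum, primary MB minus P6 and parental SMB minus P6. Points are fitted differences, bars 1 SE, and filled points were called; the adult panel reaches -6.80 for Top2a while the other panels stay within about 2 of 0.

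Called higher in MB than in P6 cerebellum were 2 of 21 replication genes, Mcm2 and Mcm7, and 3 of 18 mitosis genes, Foxm1, Plk1 and Bub1b, and 0 were called lower, beside 4.30% of all genes called higher and 6.68% called lower. The medians were 0.31 and 0.45, and that of all genes 0.05. All 3 tumours lay above both P6 arrays in 10 replication and 13 mitosis genes, as 31.5% of all genes did, and below both in Ccne1, as 23.8% did. Ccna2 is among the 13 on the probe set used (difference 0.24), while its other probe set differed by -0.39.

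Mcm2, a ring subunit of the helicase, had 12.18, 12.27 and 12.11 in the tumours and 11.39 and 11.37 at P6. The groups did not overlap, and the tumours were 1.75-fold higher (difference 0.81, SE 0.15, adjusted p 0.0194). Mcm7, another ring subunit, was 1.43-fold higher (adjusted p 0.0213), with 13.50, 13.51 and 13.68 in the tumours and 13.06 and 13.04 at P6. E2f1 had the largest difference of the replication genes, 1.51 (SE 0.61), with 10.08, 10.28 and 10.15 in the tumours against 8.74 and 8.58 at P6. All its tumour values exceeded the P6 values, but the adjusted p was 0.159. Its SE again includes the spread of the 3 parental lines, which are outside this comparison. Tyms differed by 0.60 (adjusted p 0.167). Pola1 differed by 0.00, Rrm2 by -0.01, Fen1 by -0.02, Pcna, the sliding clamp of the DNA polymerases, by -0.11, Ccne1 by -0.23 and Ccne2 by -0.27, and 0 of these 6 passed the test.

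Foxm1 was the mitosis gene with the largest difference, with 8.55, 8.90 and 8.66 in the tumours and 7.61 and 7.29 at P6. The tumours were 2.39-fold higher without overlap (difference 1.26, SE 0.18, adjusted p 0.0065), and its other probe sets differed by 1.29, 0.93 and -0.17. Plk1 had 9.08, 9.21 and 9.22 in the tumours and 8.41 and 8.38 at P6, 1.71-fold higher (adjusted p 0.00506). Bub1b, the spindle checkpoint protein BubR1, was 1.56-fold higher (adjusted p 0.0423), with 9.95, 9.73 and 10.18 in the tumours and 9.32 and 9.30 at P6. The spindle pole kinase gene Aurka missed the threshold at a difference of 0.92 (adjusted p 0.0747), as did Ube2c, the E2 enzyme of the anaphase-promoting complex, at 0.85 (adjusted p 0.161). Top2a and Cdk1 differed by 0.07 each.

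These calls rested on few arrays. Without P6 replicate 1 they came to 0 replication and 1 mitosis genes and without P6 replicate 2 to 0 and 0, while the replication count was 1 without MB replicate 3 and 4 without line SMB55. Beside the MB values stand 8 of 9 microglia and macrophage markers called higher and 5 of 6 Purkinje cell, 5 of 8 astrocyte and 7 of 8 endothelial and pericyte markers called lower than at P6 (1 astrocyte marker was higher). The granule neuron precursor markers were called higher in 4 of 9, and the part of these markers in the differences was not tested.

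Against adult cerebellum, 19 of 21 replication genes and all 18 mitosis genes were higher in MB, beside 15.2% of all genes. The medians were 3.20 and 5.17, and that of all genes 0.03. This comparison shares the MB arrays with the previous one and the adult array with the first. Mki67 was 131-fold higher (difference 7.03, adjusted p 3.1e-06), Top2a 117-fold (difference 6.87, adjusted p 4.64e-06) and Ube2c 89.3-fold (difference 6.48, adjusted p 8.02e-05). Among replication genes Rrm2 was 34.0-fold higher, Mcm3 25.7-fold and Cdc6, the loader of the helicase, 19.8-fold, with adjusted p of 8.59e-05, 1.16e-05 and 1.7e-05. The adult levels of Cdc6 (5.23) and of the mitosis genes lay near the floor of 4.72, which compresses these folds. Foxm1 and Plk1 had the smallest differences of the mitosis genes, 2.93 and 3.43. The E cyclins were again the exceptions, since Ccne1 differed by -0.37 (adjusted p 0.376) and Ccne2 by 0.83 (adjusted p 0.167).

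Parental SMB cells, entered as 1 mean for each of 3 lines, had higher levels than P6 cerebellum in 12 of 21 replication genes and 8 of 18 mitosis genes, and 0 were called lower. Of all genes 14.6% were called higher and 11.0% lower. The medians were 0.67 and 0.59, and that of all genes 0.08. All 8 parental arrays lay above both P6 arrays in 13 replication and 8 mitosis genes, as 22.4% of all genes did.

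E2f1 ranged from 9.57 over a median of 10.09 to 12.37 on the 8 parental arrays, and had 8.74 and 8.58 at P6. The ranges were apart, and the fold of 4.11 was the largest of any member here (difference 2.04, SE 0.61, adjusted p 0.0486). Cdc45, part of the active helicase, ranged from 9.33 over 9.45 to 10.45 in the lines, with 8.08 and 8.16 at P6, and was 2.83-fold higher (adjusted p 0.00811). Tk1, the thymidine kinase of the salvage pathway, ranged from 10.06 over 10.71 to 11.26, with 9.50 and 9.44 at P6, and was 2.41-fold higher (adjusted p 0.00415). In both genes every parental array stood above P6. Tyms was 2.34-fold higher (adjusted p 0.0138), and Cdc6 and all 7 Mcm genes also passed. Pcna differed by -0.01, as did Rrm1, the large subunit of ribonucleotide reductase, Pola1 by -0.18, its partner primase gene Prim1 by -0.24 and Ccne2 by -0.46, and these were not called.

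Plk1 ranged from 9.57 over 9.96 to 10.24 on the parental arrays and had 8.41 and 8.38 at P6. It was 2.95-fold higher (difference 1.56, SE 0.10, adjusted p 0.000141), with wide clearance between the groups. Foxm1 was 2.61-fold higher (adjusted p 0.00243), with 8.48 to 9.09 on the parental arrays around a median of 8.75, and 7.61 and 7.29 at P6. Aurkb, the kinase of the passenger complex, was 2.25-fold higher (adjusted p 0.00965), ranging from 10.24 over 10.88 to 11.33 against 9.73 and 9.60 at P6. Aurka, the kinesin gene Kif20a, Bub1b, Birc5 and Cdc20, an activator of the anaphase-promoting complex, completed the called mitosis genes. The checkpoint kinase genes Ttk and Bub1 differed by 0.12 and 0.15. Without P6 replicate 1 the counts fell to 3 replication and 4 mitosis genes, and without replicate 2 to 3 and 3. Beside these values, all 9 microglia and macrophage markers (median -3.70), all 8 endothelial and pericyte markers (-2.83) and 5 of 6 Purkinje cell markers (-5.73) were lower in the lines than at P6, as were 5 of 8 astrocyte markers, of which 1 was higher, and their part was not tested.

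Set against MB, parental SMB cells were higher in 5 replication genes and 3 mitosis genes, with 0 called lower, beside 12.4% of all genes called higher and 8.19% called lower. The medians were 0.31 and 0.14, and that of all genes 0.03. Centring each array on its median moved that of all genes to -0.19 and that of the mitosis genes to -0.07, and 2 replication genes and 1 mitosis gene were then called. The replication count was 3 without either P6 array, without MB replicate 1 or 2, or without line SMB21 or SMB56. All parental arrays stood above all tumours in Mcm6, Cdc45, Tk1 and Ccne1 and in Plk1 and Kif20a, as 11.3% of all genes did.

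The tumours had 9.82, 9.54 and 9.99 for Tk1, under the lowest parental value of 10.06, and the lines were 1.94-fold higher (adjusted p 0.0103). Cdc45 was 1.93-fold higher in the lines (adjusted p 0.0316), with 8.86, 8.26 and 8.89 in the tumours. For Ccne1 the parental arrays ranged from 8.46 over 8.94 to 9.69 and the tumours had 8.24, 8.17 and 7.94, so that the lines were 1.86-fold higher (adjusted p 0.0227). Mcm5 and Mcm6 were 1.61-fold and 1.34-fold higher (adjusted p 0.017 and 0.048). Plk1 was 1.72-fold higher (adjusted p 0.00307), and Kif20a and Aurkb were each 1.59-fold higher (adjusted p 0.0142 and 0.0498). Differences under 0 among the replication genes were those of Mcm2 (-0.27), Prim1 (-0.26), Ccne2 (-0.19), Pola1 (-0.18), Mcm7 (-0.11) and Rrm1 (-0.08), and Fen1 differed by 0.085. Mki67 differed by -0.23, Cenpa, the histone variant of centromeres, by -0.15, Ube2c by -0.09 and Ccna2, the cyclin of S phase and early mitosis, by -0.01, and Kif11 by 0.015, and 0 of these genes of either list were called. All 9 microglia and macrophage markers were lower in the lines than in MB, and their part in these differences was not tested.

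**Figure D3:**
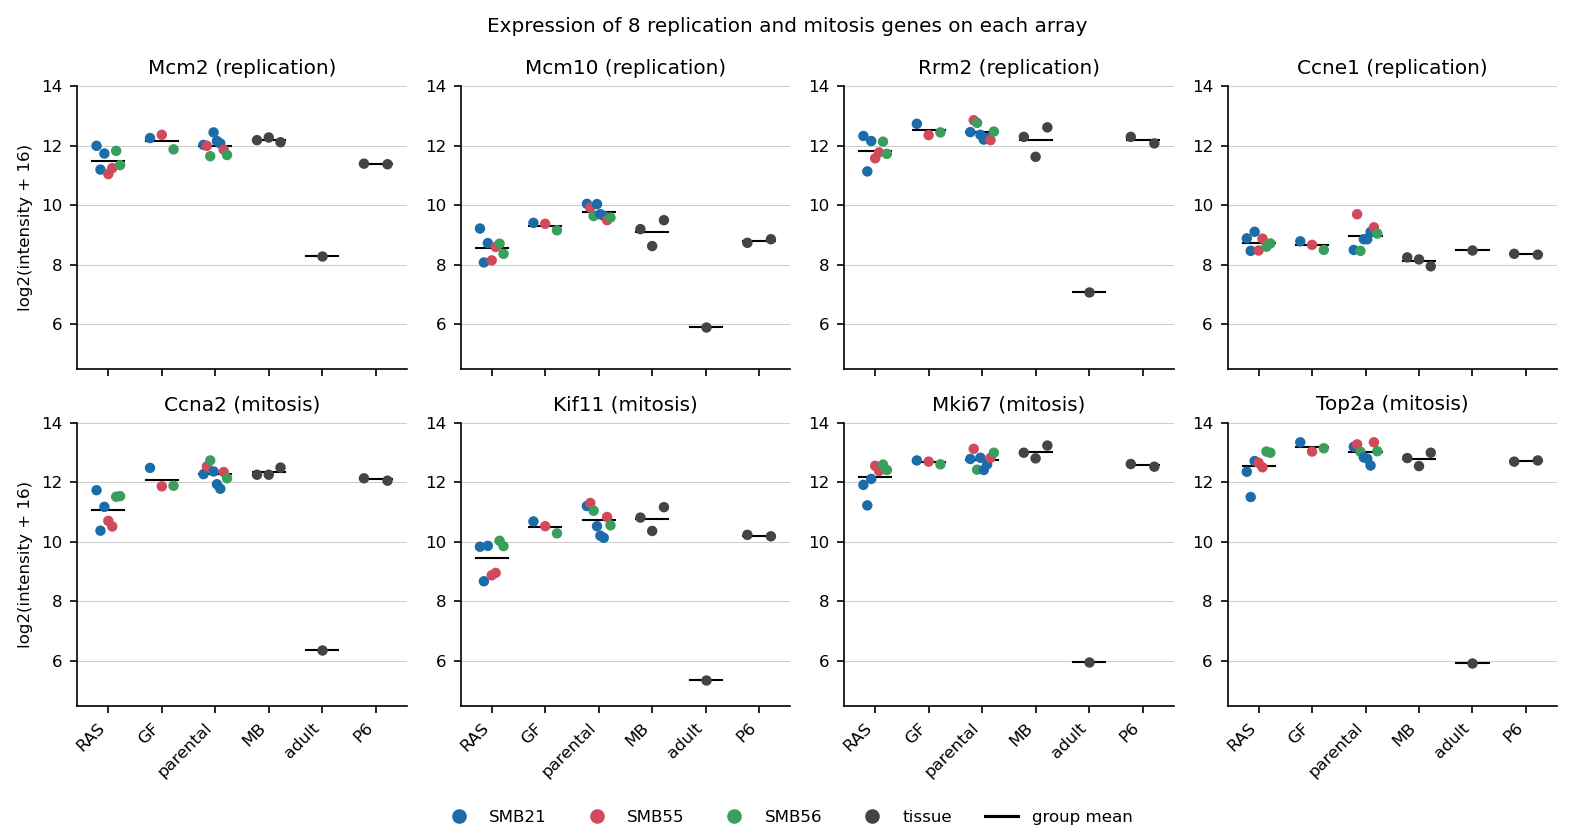
Levels (log2 of intensity plus 16, y axis) of 8 members on each of the 24 arrays, grouped as RAS, GF and parental SMB cells, primary MB, adult and P6 cerebellum, with colour for the SMB line. The adult array stands far below all others in each gene but Ccne1, and the RAS points of Mcm10 and Kif11 lie below the parental points.

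RAS transformed cells had lower levels of replication and mitosis genes than parental cells of the same lines. All 21 replication and all 18 mitosis genes had a negative difference, 18 and 12 of them were called lower, and 17.9% of all genes were called lower. The medians were -0.71 and -0.53, and that of all genes -0.05. In this fit the arrays of a line counted as separate samples. Fewer members were called with 1 mean for each line and treatment, as given below. Within each of the 3 lines every RAS array lay below every parental array in 9 replication genes (Mcm5, Mcm6, Mcm7, Mcm10, Pcna, Cdc6, Rrm1, Tk1 and Rfc4) and in the mitosis genes Ccna2 and Kif11, as 7.81% of all genes did. The same held over all lines pooled for Mcm10, Rfc4, Ccna2 and Kif11, as for 3.75% of all genes.

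Mcm10, which helps to switch on the loaded helicase, ranged from 8.07 over a median of 8.59 to 9.21 in RAS cells and from 9.49 over 9.67 to 10.04 in parental cells. The highest RAS array was below the lowest parental one. RAS cells were 2.30-fold lower (difference -1.20, SE 0.15, adjusted p 3.77e-05). Mcm5 was 2.02-fold lower (difference -1.02, SE 0.27, adjusted p 0.0101), at 8.53 to 10.69 in RAS cells around 9.90 and 10.34 to 11.31 in parental cells around 10.88, ranges that overlapped through 1 RAS array of SMB56. Ccne2 was 1.94-fold lower (adjusted p 0.00258), ranging from 9.16 over 10.02 to 10.70 in RAS cells and from 10.38 over 10.91 to 11.76 in parental cells. Rfc4, of the clamp loader, had 10.56 to 11.16 in RAS cells and 11.28 to 12.01 in parental cells, and was 1.90-fold lower (adjusted p 7.36e-05).

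The other called replication genes fell by 0.37 (Cdc45) to 0.92 (Cdc6) on the log2 scale. Nucleotide synthesis genes were among them, with -0.68 for Rrm1, -0.61 for Rrm2, -0.75 for Tk1 and -0.71 for Tyms, and so were Pcna (-0.65), Pola1 and Prim1 (-0.75 each). Ccne1 (difference -0.24, adjusted p 0.253), Mcm4 (-0.35, adjusted p 0.142) and E2f1 (-0.76, SE 0.33, adjusted p 0.0904) were not called.

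Kif11, the motor that pushes spindle poles apart, ranged from 8.68 over 9.84 to 10.04 in RAS cells and from 10.14 over 10.70 to 11.31 in parental cells. The ranges did not overlap, and RAS cells were 2.45-fold lower (difference -1.29, SE 0.24, adjusted p 0.00105). Ccna2 was 2.28-fold lower (difference -1.19, SE 0.21, adjusted p 0.000634), at 10.38 to 11.74 in RAS cells and 11.79 to 12.74 in parental cells. Birc5 was 1.93-fold lower (adjusted p 0.00318), but its RAS range of 9.65 to 11.11 ran into the parental range of 10.90 to 12.16. Mki67 fell by 0.60 and Top2a by 0.50 (adjusted p 0.00824 and 0.0411). The 6 mitosis genes not called were Aurka and Plk1 (-0.20 each), Cdc20 (-0.33), Cenpa and Foxm1 (-0.34 each) and Ttk (-0.45). With the mean of all its probe sets Foxm1 was called (difference -0.49, adjusted p 0.000972).

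With 1 mean for each line and treatment, 5 replication and 1 mitosis genes were called, and without SMB55 parental replicate 1, SMB21 parental replicate 2 or SMB21 RAS replicate 1 the mitosis count was 7. Beside these falls, 7 of 9 granule neuron precursor markers were lower and 1 higher in RAS cells (median difference -2.75). The log2 of their summed intensity was 14.26 to 14.73 in RAS cells, against 14.82 to 15.19 in parental cells. Of 8 endothelial and pericyte markers 4 were higher (9.83 to 12.35, against 8.56 to 9.07, with Pecam1 below the lower quartile in both). GF cells also had 4 of the 9 granule neuron precursor markers called lower than parental cells and 0 higher (median difference -2.02). Of all genes 4.96% were called lower there and 3.97% higher. By line the GF medians of these 9 were -2.56 in SMB21, -0.46 in SMB55 and -3.19 in SMB56. Their summed intensity in GF cells had a log2 of 13.35 to 14.71. The part of any of these markers in the RAS falls was not tested.

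By line, RAS cells were called lower than parental cells in 6 replication and 4 mitosis genes in SMB21, beside 10.3% of all genes, in 11 and 5 in SMB55, beside 10.9%, and in 3 and 0 in SMB56, beside 5.90%. The replication medians were -0.54 in SMB21, -1.05 in SMB55 and -0.60 in SMB56, and the mitosis medians -0.51, -0.73 and -0.46 in the same order of lines. Mcm10 was called in each line, with differences of -1.19 in SMB21, -1.33 in SMB55 and -1.08 in SMB56 (adjusted p 0.00597, 0.0124 and 0.0499). Kif11 differed by -1.06 in SMB21, by -2.15 in SMB55 and by -0.86 in SMB56, and Ccna2 by -1.0, -1.83 and -0.92, and both were called in SMB21 and SMB55. Pola1 was called in SMB55 (-1.15) and SMB56 (-1.26), against -0.20 in SMB21. The replication count was 3 in SMB21 without SMB21 parental replicate 2 or SMB21 RAS replicate 1, 2 in SMB55 without SMB55 parental replicate 1 or SMB55 RAS replicate 1, and 6 in SMB55 without SMB55 RAS replicate 2. In SMB56 it was 0 without SMB56 parental replicate 1 or SMB56 RAS replicate 2, and 1 without SMB21 parental replicate 2, 3 or 4, either SMB55 RAS array or SMB56 RAS replicate 1. The mitosis count in SMB21 was 2 without SMB21 parental replicate 1 or 2 or SMB21 RAS replicate 1, and 7 without SMB21 RAS replicate 3. In SMB55 it was 2 without SMB55 parental replicate 1 or either SMB55 RAS array, 3 without SMB55 parental replicate 2 and 8 without SMB21 RAS replicate 1. In SMB56 it was 4 without SMB21 RAS replicate 1, 2 without SMB56 parental replicate 2 and 1 without SMB21 RAS replicate 3.

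A test of whether the RAS response differed between the lines passed for 2 of the 39 members, E2f1 and Foxm1, beside 3.45% of all genes. E2f1 had 10.23 and 10.05 in SMB55 RAS cells against 11.86 and 12.37 in SMB55 parental cells, 3.93-fold lower (difference -1.98, SE 0.24, adjusted p 0.000354). In SMB21 its RAS values were 9.26, 9.30 and 9.49 against parental values of 10.14, 10.05, 9.79 and 9.57 (difference -0.54, adjusted p 0.0626), and in SMB56 they were 9.97 and 10.24 against 9.84 and 10.37 (difference 0.00, adjusted p 0.999). Only the SMB55 difference was called, and the difference between lines had an adjusted p of 0.0199. A second probe set of E2f1 gave -0.76 in SMB21, -1.73 in SMB55 and -0.11 in SMB56. The parental lines themselves differed in E2f1 (adjusted p 0.000781), the single member to do so, beside 5.08% of all genes. Parental SMB55 stood 2.23 above SMB21 (4.68-fold, adjusted p 0.000292, with 3.11% of all genes called higher), and SMB56 stood at -2.01 from SMB55 (adjusted p 0.00456, with 0.363% called lower) and 0.22 from SMB21 (adjusted p 0.67). The RAS difference between lines was lost without SMB55 parental replicate 2, SMB55 RAS replicate 1, SMB55 RAS replicate 2 or SMB56 RAS replicate 2, with adjusted p from 0.00752 to 0.0625 over the left-out arrays.

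Foxm1 had 9.30 and 8.99 in SMB56 RAS cells and 8.64 and 8.71 in SMB56 parental cells, while in SMB21 it had 7.94, 8.02 and 8.07 in RAS cells and 9.02, 8.77, 8.73 and 8.48 in parental cells. In SMB55 the values were 8.73 and 8.50 in RAS cells and 9.08 and 9.09 in parental cells. RAS arrays were thus above the parental ones in SMB56 and below them in SMB21 and SMB55, with differences of 0.47 in SMB56, -0.74 in SMB21, the one called by line (adjusted p 0.00219), and -0.47 in SMB55, and an adjusted p of 0.0232 for the difference between lines. Other probe sets of Foxm1 did not show this, since one gave -0.95, -0.72 and -0.63 and another -0.88, -0.75 and -0.54 in SMB21, SMB55 and SMB56. With the mean of all probe sets the adjusted p was 0.303, and it was also above the threshold without SMB56 parental replicate 1, SMB21 parental replicate 3 or SMB56 RAS replicate 1 (up to 0.0887).

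**Figure D4:**
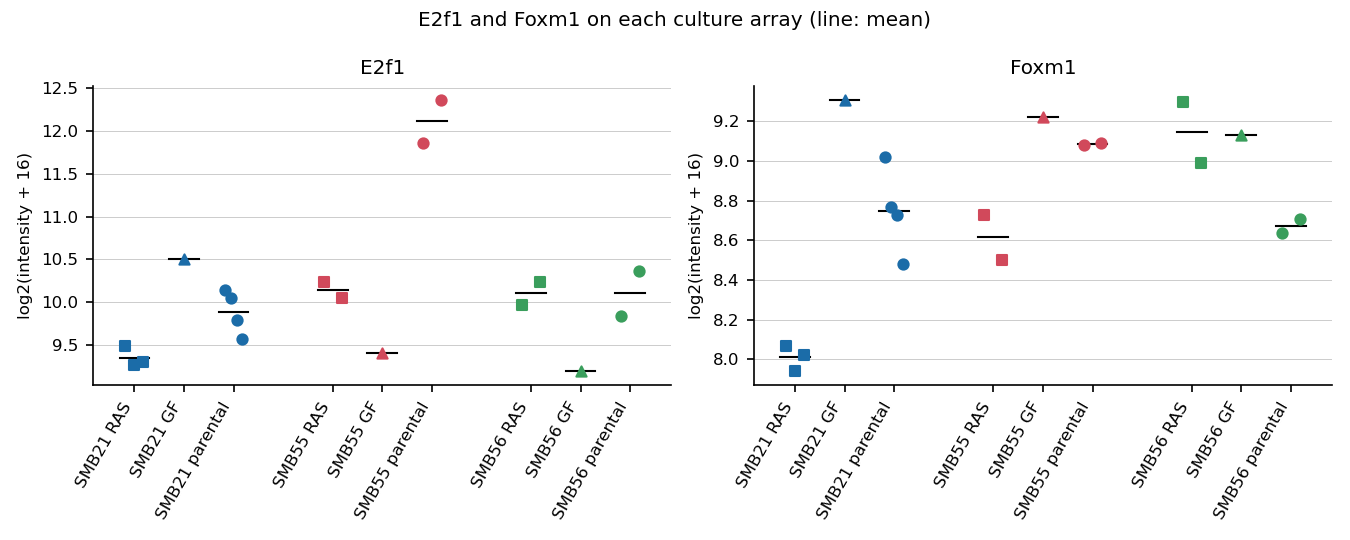
Levels of E2f1 and Foxm1 (log2 of intensity plus 16, y axis) on each culture array, by SMB line, with RAS, GF and parental cells side by side. E2f1 stands highest in SMB55 parental cells at 11.86 and 12.37, and Foxm1 stands higher in RAS than in parental cells in SMB56 alone, on the probe set used.

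Few of these genes passed the test between GF and parental cells. Of the replication genes 1 was called lower and of the mitosis genes 0, beside 4.96% of all genes called lower and 3.97% called higher, and 0 members were called higher. The medians were -0.29 and -0.10, and that of all genes -0.01. By line the mitosis medians went both ways, with 0.37 in SMB21, -0.29 in SMB55 and -0.51 in SMB56, from 1 GF array each. The replication medians were -0.15, -0.28 and -0.26 in the same order. With each GF array paired to parental replicate 1 of its line, the counts were 0 and 0. In each line the GF array lay below every parental array in Mcm6, Mcm10, Rrm1, Tyms and Ccne2, as 10.6% of all genes did, and above them in Foxm1, as 8.09% did. Averaged over the lines, other probe sets of Foxm1 differed by at most 0.16, against 0.39 on the probe set used.

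Cdc45 was the gene called, with 9.50 in SMB21, 8.75 in SMB55 and 8.86 in SMB56 GF cells, against 9.33 to 10.45 around a median of 9.45 in parental cells. In SMB21 the GF value lay within the parental range, and over the lines the GF cells were 1.5-fold lower (difference -0.59, SE 0.17, adjusted p 0.047). Ccne2 (-0.79, adjusted p 0.086) and Tyms (-0.65, adjusted p 0.0585) missed the threshold. Differences above 0, none called, were those of Pola1 (0.31), Mcm2 (0.23), Rrm2 (0.06), Mcm3 (0.04) and Tk1 (0.03), and Prim1 differed by -0.02. Among the mitosis genes Bub1b differed by -0.52 (adjusted p 0.104), Ube2c by 0.45, Foxm1 by 0.34, Top2a by 0.11, Aurka by 0.10, Cdk1 by 0.09, Ttk by -0.04 and Birc5 by -0.02, with 0 called. The Cdc45 call was lost without SMB21 parental replicate 2 or 3, either SMB55 parental array, SMB56 parental replicate 2, SMB21 RAS replicate 3, either SMB55 RAS array, SMB56 RAS replicate 1, or the GF array of SMB55 or SMB56.

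E2f1 in GF cells had 10.51 in SMB21, 9.40 in SMB55 and 9.19 in SMB56. Each line had 1 GF array, so the tests by line took the spread from the other groups. Against the parental cells given above, the differences were 0.62 in SMB21, -2.71 in SMB55 (6.55-fold lower, adjusted p 0.00187) and -0.92 in SMB56. SMB55 alone was called, and there 0.202% of all genes were called lower. The GF response of E2f1 differed between the lines (adjusted p 0.00719), as that of 1.40% of all genes did. Over all lines the difference was -0.91 (SE 0.43, adjusted p 0.217).

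Against GF cells, RAS cells were lower in 6 replication and 3 mitosis genes, beside 5.45% of all genes called lower, and the medians were -0.52 and -0.49, with -0.04 for all genes. By line the replication medians were -0.6 in SMB21, -0.59 in SMB55 and -0.28 in SMB56, against 1 GF array each. The mitosis medians were -0.94, -0.47 and -0.11 in the same order, and in SMB56 8 of 18 mitosis genes were above 0. The RAS arrays are those compared with parental cells above. Pola1 ranged from 8.43 over 8.98 to 9.70 in RAS cells and had 9.90, 10.10 and 10.32 in GF cells. There was no overlap, and RAS cells were 2.09-fold lower (adjusted p 0.0279). Mcm10 was 1.72-fold lower (adjusted p 0.0208), with 9.40, 9.37 and 9.15 in GF cells, and the highest RAS array, at 9.21, reached into the GF range. Mcm2, Pcna, Rfc4 and Cdc6 were also called, while Tk1 was not (difference -0.78, adjusted p 0.1). Ube2c was 2.26-fold lower (adjusted p 0.0349), from 11.31 over 12.23 to 12.76 in RAS cells against 13.65, 13.72 and 12.55 in GF cells, and Ccna2 and Birc5 were called with it. Kif11 differed by -1.04 and missed the threshold (adjusted p 0.0514). Differences above 0, none called, were found for Cdc45 (0.22), E2f1 (0.16), Ccne1 (0.09) and Bub1b (0.01), while Mcm4 differed by -0.07, Tyms by -0.06 and Plk1 by -0.04. With replicate numbers as a block the counts were 0 and 0, and without the GF array of SMB21 they were 3 and 0, of SMB55 0 and 0, while without that of SMB56 the replication count was 1. Without SMB55 RAS replicate 1 they were 2 and 0, without replicate 2 they were 3 and 0, and without SMB21 RAS replicate 1 the mitosis count was 1.

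Further genes of the same processes, from lists chosen with earlier results known, were counted in the same fits. Of 38 other replication genes 34 were lower in the adult than at P6, beside 10.3% of all genes, and 29 were lower in RAS than in parental cells, beside 17.9%, with a median of -0.64. In MB 3 of the 38 were higher than at P6, beside 4.30% of all genes, and in parental SMB cells 11 were higher than at P6, beside 14.6%. Dnajc9, a histone chaperone, differed by -1.43 in RAS cells, Wdhd1 by -1.26 and Rpa3, of the single-strand binding complex, by -1.28. In MB the called genes were Dtl (1.10), Orc1 (0.93), of the origin recognition complex, and the licensing factor gene Cdt1 (0.79). GF cells were lower than parental cells in 5 of the 38, beside 4.96% of all genes, among them Cdc7, a kinase that starts origins, at -1.02.

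Of 44 other mitosis genes 41 were lower and 1 higher in the adult than at P6, beside 10.3% of all genes called lower and 8.85% called higher. In RAS cells 29 were lower and 2 higher than in parental cells (median -0.68), beside 17.9% and 14.1% of all genes. In MB 5 were higher and 1 lower than at P6, beside 4.30% and 6.68%, and in parental SMB cells 15 were higher than at P6, beside 14.6%. Aspm, a spindle pole gene, differed by -5.50 in the adult and by -1.13 in RAS cells, and Hmgb2 by -4.42 and -1.26. Ncapd2, of the condensin complex, differed by 1.22 in MB and Racgap1, of cytokinesis, by 0.92. In GF cells 3 of the 44 were higher than in parental cells, Cdca3 (0.98), Hmmr (0.80) and Pttg1 (0.66), and 3 were lower, beside 3.97% of all genes called higher and 4.96% called lower.

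Another list held 18 genes of retinoblastoma protein, E2F, MuvB and Cdk control. In the adult 7 were lower and 1 higher than at P6, beside 10.3% and 8.85% of all genes. In MB 2 were higher than at P6, beside 4.30%, and 8 were lower in RAS than in parental cells, beside 17.9%. Cdk6, a kinase that phosphorylates the retinoblastoma protein, differed by 2.49 in MB, and E2f8, a repressing E2F, by 1.04. Rb1, the retinoblastoma gene, differed by -1.25 between RAS and parental cells, by -1.24 between RAS and GF cells and by -1.11 between parental SMB cells and MB. Cdk4, which like Cdk6 phosphorylates the retinoblastoma protein, differed by -2.97 in the adult and by -0.61 in RAS cells.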

How the data were processed

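Per the labels, total RNA of 24 samples was hybridised to Affymetrix mouse arrays, and the authors deposited 1 linear intensity per probe set and array. Their summarisation and normalisation are not stated in the labels or headers. Medians of the arrays ran from 188.8 to 245.1, and the number of arrays limits the precision. Of 22690 probe sets, 20380 had 1 gene symbol, 691 had several and 1606 had none, and 20351 matched the GRCm38.p6 gene table. Each of the 12393 genes was represented by the probe set with the highest mean, a choice that touched 20 of the 39 members. In the comparison of adult with P6 cerebellum 4 of the 20 had a probe set of the opposite sign (Foxm1, Mcm10, Top2a and Tyms). In that of RAS with parental cells 1 had (Top2a). The other Top2a probe set, at a low mean level of 5.52, differed by 0.14 in the adult and by 0.18 in RAS cells. For MB against P6 there were 4 (Ccna2, Foxm1, Prim1 and Rrm2), and for GF against parental cells 3 (Foxm1, Rrm2 and Tyms). From the deposited intensities log2(intensity + 16) was computed here.

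Linear models came from limma 3.58.1, run in R 4.3.3 (lmFit and eBayes, two-sided, Benjamini-Hochberg over all genes) and were tested on simulated data. Tissues were fitted with 1 mean per parental line, and cultures with treatment and line. Responses by line were fitted on the single arrays, with a separate level for each combination of line and treatment. Named in each comparison were the 3 largest and 2 smallest differences of each list and members with a sign against the list. GF arrays correlated with parental replicate 1 of their line at 0.216, 0.339 and 0.104, all above 0.1, so these numbers, which the labels give, were taken as pairs. Every other parental array of a line also exceeded 0.1 with its GF array, replicate 2 by more than replicate 1 in SMB21 and SMB56, so the values do not single out replicate 1. The GF correlations used deviations from the treatment mean, which keep line differences, so arrays of the same line could pass 0.1 through their line alone. Other comparisons used deviations from the group mean, which remove line, so their values are not like the GF ones. In none of those did every pair exceed 0.1. The alternatives were another offset, centring, all probe sets, a filter on dim genes, a trended robust prior, smaller or pooled groups, a replicate block and left-out arrays. Members and lists were chosen with earlier results of these data known.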

Additional observations from a re-analysis of the deposited data

Results flagged for a closer look

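The RAS response of E2f1 differed between the lines in limma's test of the difference (adjusted p 0.0199), with differences of -0.54 in SMB21, -1.98 in SMB55 and 0.00 in SMB56. The RAS response of Foxm1 also differed (adjusted p 0.0232), with -0.74, -0.47 and 0.47 in the same order of lines, on a probe set that other probe sets of the gene did not follow in SMB56. The GF response of E2f1 differed between the lines (adjusted p 0.00719), with 0.62 in SMB21, -2.71 in SMB55 and -0.92 in SMB56 and 1 GF array in each, whose spread was taken from the other groups. Both E2f1 responses in SMB55 were taken against the same 2 parental arrays, at 11.86 and 12.37, so the RAS and GF results for E2f1 are not independent. Among the 4 parental SMB21 arrays 0 of 39 members had a single array far from the others by Dixon's test, which chance alone passes in about 1 of 20 groups.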

How the results depend on the processing

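The cause of the changes below was not tested. With log2(intensity + 1) the mitosis median became -5.37 for adult against P6, and the medians for MB against adult 3.57 (replication) and 5.58 (mitosis). With the mean of all probe sets they were -2.45 and -3.72 for adult against P6 and 2.72 and 4.19 for MB against adult, the mitosis median for SMB against MB was 0.27, 5 mitosis genes were called in RAS against GF, and 1 member had a RAS response by line, as with a trended robust prior, which left 0 replication genes in GF against parental.

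Centring the arrays moved the median of all genes to 0.23 for MB against P6, to 0.17 for MB against adult and to -0.13 for RAS against parental, and the share of calls that were higher to 61.5% (from 39.2%), 57.5% (from 49.2%) and 33.8% (from 44.0%). For SMB against MB that share was 29.1%, against 60.2%, and for RAS against GF 35.8%, against 51.2%. MB against P6 then had 5 and 6 calls (replication and mitosis) and medians of 0.49 and 0.62, MB against adult a mitosis median of 5.31, SMB against MB 2 and 1 calls and medians of 0.095 and -0.074, GF against parental 0 replication calls and RAS against GF 6 mitosis calls.

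With only the groups compared in the fit there were 4 replication calls in MB against P6, 3 in SMB against MB, 2 in GF against parental, and 2 and 0 calls in RAS against GF. With all 3 normal cerebella as the control MB had 0 and 1 calls and medians of 1.26 and 1.93, and SMB 3 and 2 calls and medians of 1.53 and 2.23. With 1 mean per line and treatment there were 0 replication calls in GF against parental, 5 and 1 calls in RAS against parental, and 0 and 0 in RAS against GF.

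With replicate numbers as a block the calls were 0 and 0 in MB against P6 (replication median 0.14), 0 replication genes in GF against parental, 0 and 0 in RAS against GF and 7 mitosis genes in RAS against parental, and no other count moved by over 1.5 times. Same-numbered RAS and parental arrays correlated at -0.154 in SMB55, and with that pairing crossed, an alternative chosen after seeing the data, the mitosis count was again 7.

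Leaving out 1 array or line gave 0 to 4 and 0 to 3 calls in MB against P6 (replication median 0.14 to 0.44), medians of 3.00 to 3.44 and 5.04 to 5.20 in MB against adult, 3 to 12 and 3 to 9 calls in SMB against P6, 3 to 5 replication calls in SMB against MB, 0 to 2 and 0 to 1 in GF against parental, 7 to 12 mitosis calls in RAS against parental, 0 to 7 and 0 to 4 in RAS against GF, 1 to 3 members with a RAS response by line and 1 to 2 that differed between parental lines. For single members 5759 values under the alternatives kept their side of the threshold, 335 lost a call and 70 gained one. Changes of sign among members not called were not counted. Centring, for example, took the mitosis median for SMB against MB from 0.14 to -0.07. Members near the lowest intensities, such as Tyms and most mitosis genes in the adult, have compressed differences.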
